A study of Homo sapiens with 9 samples.

Results

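Glycolysis splits glucose to pyruvate and lactate, and many of its enzymes are targets of the hypoxia-inducible factors (HIF), transcription factors whose alpha subunits, HIF1A and EPAS1, are marked for destruction by oxygen-dependent prolyl hydroxylases of the EGLN family. When oxygen is short, the pathway is known to raise glucose uptake, lactate export and vessel growth factors, while pyruvate dehydrogenase kinases (PDK) keep pyruvate out of the mitochondria. The 37 genes described here cover glucose transporters, the steps of glycolysis and their regulators, lactate handling, the 4 PDK genes, the HIF alpha subunits and 7 hypoxia-linked genes. They were chosen by gene symbol, and 37 of the 37 were found among the 58676 genes listed.

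The cells were OVCA433, an established line of human ovarian serous adenocarcinoma, carrying either a control vector or 1 of 2 short hairpins, shRNA#1 or shRNA#3, against MPZL3, a predicted cell adhesion molecule. Each of these 3 groups had 3 libraries with the replicate letters A, B and C, giving 9 in all, and the study asked how loss of MPZL3 changes the cells. All groups were grown in RPMI medium with serum, none was labelled as hypoxic, and the genotype label of the control was WT. The study describes lentiviral delivery with puromycin selection and 3 biological replicates per condition, and it calls the control an empty vector in 1 place and a scrambled hairpin in another, so the content of the control vector is uncertain. Library totals ran from 16850854 to 23890191 counts. MPZL3 itself stood at 15.6 to 21.9 CPM (counts scaled to a common library size) in the control libraries and at 0.988 to 1.98 CPM in the 6 knockdown libraries, and its fitted log2 difference was -3.49 ± 0.191 (SE) with an edgeR adjusted p of 6.87e-08.

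Markers of the labelled epithelial cell type were high in the control libraries and most were lower in the knockdown libraries, with KRT8 still at 2114 ± 209 and 2148 ± 140 CPM with hairpins #1 and #3 against 4816 ± 237 CPM in control. Of 8 epithelial markers, 7 fell, with their summed level going from 11900 to 14820 CPM in control libraries to 5127 to 6624 CPM with hairpin #1 and 5069 to 5655 CPM with hairpin #3, and CDH1 and ESRP1 ended near 0. Of 8 ovarian serous markers 5 could be tested: PAX8 and 2 others rose, MUC16 and 1 other fell, and WT1 and EMX2 had no count in any library, with summed levels of 268 to 305 CPM in control, 299 to 326 CPM with hairpin #1 and 330 to 441 CPM with hairpin #3. All 5 testable fibroblast markers of 8 rose, from a sum of 18.7 to 22.1 CPM to 110 to 447 CPM and 503 to 871 CPM, although DCN stayed at 0. Of 5 endothelial markers 4 were tested and 2 rose, with sums of 0.946 to 1.65 CPM in control and 4.86 to 8.52 CPM in knockdown libraries, and of 5 leukocyte markers 1 was tested and not called. CD3E, CD68 and MS4A1 lay at 3 counts or fewer throughout, and the leukocyte sums were 0.498 to 1.02 CPM in control and 0.184 to 1.35 CPM in knockdown libraries. These shifts accompany the knockdown groups as a whole, and their part in the differences given here was not tested. In bulk RNA, fewer cells expressing a gene and less RNA per cell cannot be told apart.

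36 members had enough counts to be tested, CA9 being the exception at 0 to 4 counts per library. The filter asks for enough counts in only as many libraries as the smallest group holds. CA12 passed it through the knockdown libraries, and PDK4 and EGLN3 passed it through the control libraries. For these members, being tested was therefore not independent of the difference. A log2 fold change of 1 is a doubling, and a gene is called changed where the edgeR quasi-likelihood test gave an adjusted p-value under 0.05 over all 15975 tested genes. The members together took 1.13% ± 0.022 (SD, n = 3) of all counts in control libraries, 1.36% ± 0.034 with hairpin #1 and 1.25% ± 0.010 with hairpin #3. Much of this sum came from GAPDH, PKM and ENO1, so it does not stand for all members. In control A they took 0.239%, 0.245% and 0.161% of counts, and in hairpin #1 A 0.275%, 0.278% and 0.23%.

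The changes at the extremes of the set were in opposite directions within the same hypoxia-linked group, so upstream sequences are shown first for 5 of the 7 members with a called change of at least 2-fold in any comparison of groups. NDRG1 and VEGFA, which both rose, are not shown, and their promoters were not analysed here. They are the 250 bases before the RefSeq transcription start on GRCh38.p14, written 5′ to 3′ on the strand of the gene. Capitals mark ACGTG or GCGTG, the core letters of the sites that HIF binds, on either strand (CACGT and CACGC when read on the other strand, and CACGTG where 2 matches overlap).
EGLN3, chr14:33951075-33951324, minus strand: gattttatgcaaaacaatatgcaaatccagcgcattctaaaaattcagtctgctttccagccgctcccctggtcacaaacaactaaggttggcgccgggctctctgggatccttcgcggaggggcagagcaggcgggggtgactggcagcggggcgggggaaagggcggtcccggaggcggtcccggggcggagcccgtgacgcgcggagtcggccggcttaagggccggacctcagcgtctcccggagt
PDK4, chr7:95596517-95596766, minus strand: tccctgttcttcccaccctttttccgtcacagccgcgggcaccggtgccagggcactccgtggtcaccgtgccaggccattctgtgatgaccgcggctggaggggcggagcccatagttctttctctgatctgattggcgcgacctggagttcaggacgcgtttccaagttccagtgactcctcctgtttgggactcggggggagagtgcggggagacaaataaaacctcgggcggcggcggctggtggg
CA12, chr15:63381847-63382096, minus strand: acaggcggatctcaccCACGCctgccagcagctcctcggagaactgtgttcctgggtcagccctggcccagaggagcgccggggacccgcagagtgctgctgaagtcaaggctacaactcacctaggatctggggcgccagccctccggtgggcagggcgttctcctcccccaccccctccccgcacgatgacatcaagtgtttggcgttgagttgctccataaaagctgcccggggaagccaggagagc
ALDOC, chr17:28576896-28577145, minus strand: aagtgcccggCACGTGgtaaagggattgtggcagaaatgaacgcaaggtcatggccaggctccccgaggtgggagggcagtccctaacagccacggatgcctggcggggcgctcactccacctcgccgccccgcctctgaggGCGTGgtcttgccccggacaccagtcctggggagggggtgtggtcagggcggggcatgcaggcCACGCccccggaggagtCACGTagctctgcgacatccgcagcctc
PDK3, chrX:24465036-24465285, plus strand: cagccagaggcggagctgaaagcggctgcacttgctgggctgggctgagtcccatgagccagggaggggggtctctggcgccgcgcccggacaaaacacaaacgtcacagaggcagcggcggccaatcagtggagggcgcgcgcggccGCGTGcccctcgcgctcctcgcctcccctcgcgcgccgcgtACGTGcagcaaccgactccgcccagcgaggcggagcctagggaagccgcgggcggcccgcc
EGLN3 and PDK4, the members that fell to near 0, held no match in these bases or in the 50 bases after the start. The same was true of HK1, PFKM, TPI1, PGAM1 and SLC16A3, which were called higher in the pooled comparison. PFKP, PDK1 and PDK2, not called in that comparison, also held none. Whether matches go with the direction of change was not tested. CA12 held 1 match and PDK3 held 2 in the printed bases, and ALDOC held 5. Over the whole 300-base windows, 22 of the 32 members found in the promoter table (68.8%) held at least 1 match, against 48.4% of all 35116 promoters. BNIP3 and LDHA had the most, 6 each. A match here is a description of the letters and not a binding site, and the EGLN3 gene of the count table extends upstream of this RefSeq start.

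MPZL3 knockdown was followed by higher levels of 13 members and lower levels of 2 when both hairpins were taken as 1 arm of 6 libraries against the 3 control libraries. The called share was 15 of 36 (41.7%), and over all tested genes 33.0% were called. Higher calls made up 13 of the 36, against 15.9% of all genes, and lower calls 2, against 17.0%. The median log2 fold change of the 36 was 0.21, against 0.0045 for all tested genes, and 26 of the 36 were above 0. Changes of at least 2-fold were called for 4 members, CA12 and NDRG1 upward and PDK4 and EGLN3 downward, while 14.7% of all genes passed the same rule. CA12, PDK4 and EGLN3 could be tested only because 1 side, knockdown or control, was high. Without overlap between the control and knockdown libraries were 14 members, 11 above and 3 below control, against 33.1% of all tested genes. Of the 15 calls, 9 held whichever single library was left out.

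**Figure D1:**
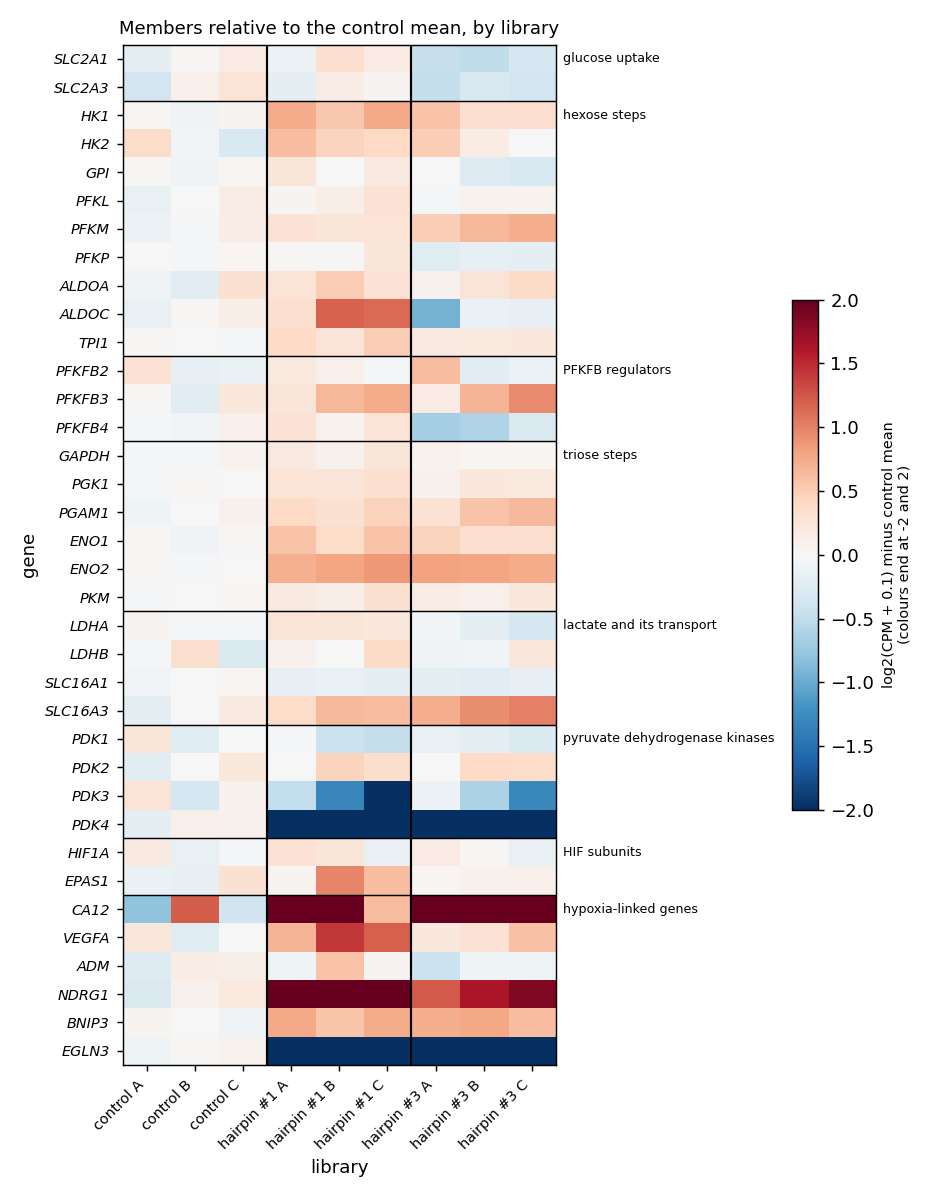
Difference of log2(CPM + 0.1) from the control mean for the 36 tested members (rows, by role) in each of the 9 libraries (columns), with colours ending at -2 and 2. PDK4 and EGLN3 are low and NDRG1 is high in all 6 knockdown libraries, CA12 is high with an uneven control, and most glycolytic enzymes show pale shifts above control.

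**Figure D2:**
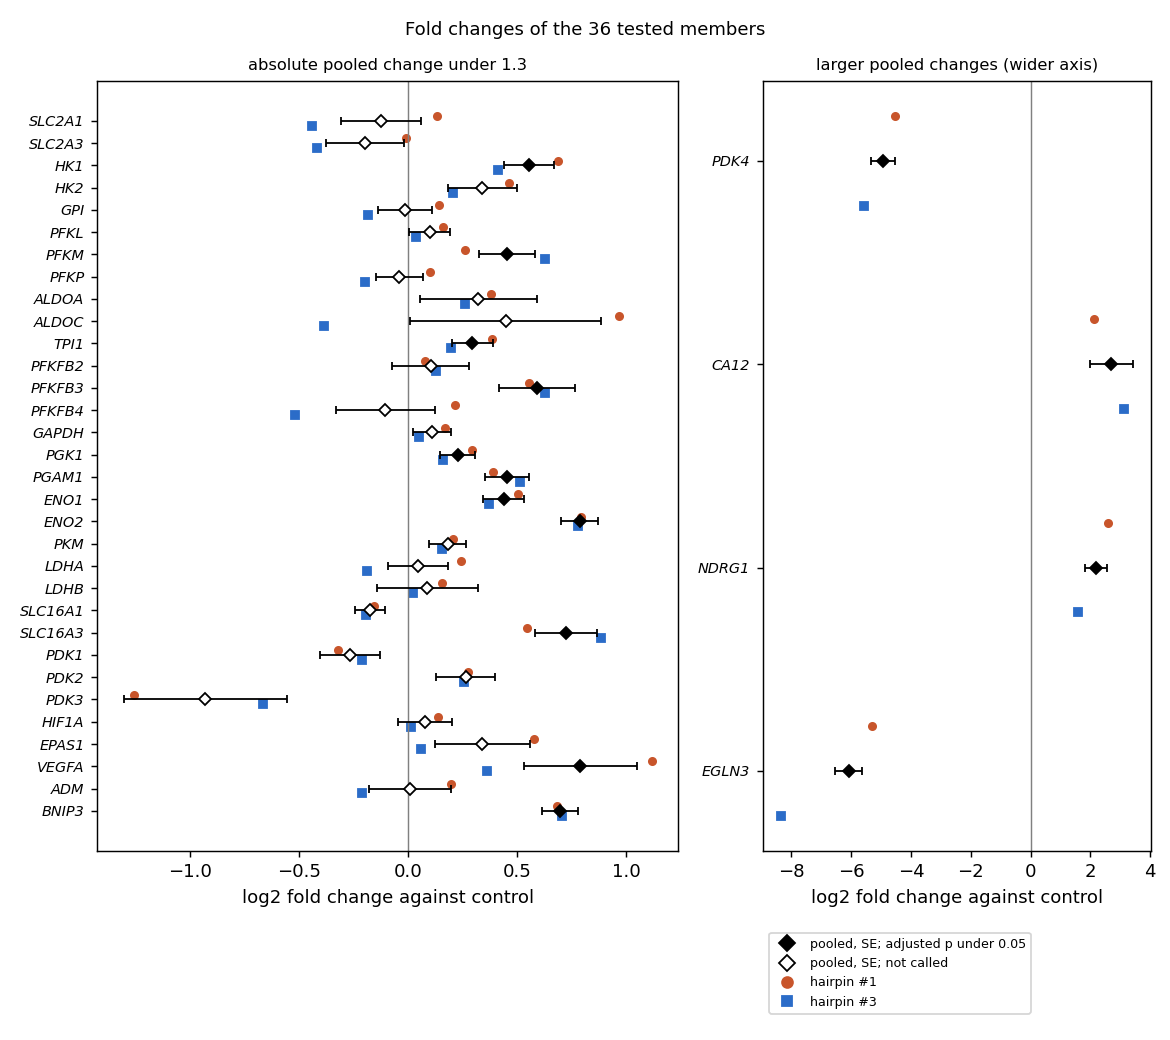
Log2 fold change against control for each tested member, with black diamonds for the pooled knockdown with its SE (filled where called), orange circles for hairpin #1 and blue squares for hairpin #3. The right panel holds the 4 members with pooled changes of at least 2-fold on a wider axis. The fitted values of PDK4, and of EGLN3 with hairpin #3, rest on 2 counts or fewer per knockdown library and are not measured folds.

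Each hairpin was also compared with control in a model of 3 groups. With hairpin #1, 18 members were called, 15 higher and 3 lower, against 37.8% of all genes called, 18.0% higher and 19.7% lower. 6 of them changed at least 2-fold, against 16.3% of all genes. With hairpin #3, 14 members were called, 10 higher and 4 lower, against 34.7% of all genes, 16.6% higher and 18.1% lower, and 4 changed at least 2-fold, against 15.3%. The 2 comparisons share the control libraries, so their calls are not independent of each other. When single libraries were left out, 11 of the 18 calls and 10 of the 14 calls held throughout.

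EGLN3, an oxygen-sensing prolyl hydroxylase that is itself a known HIF target, fell to near 0. It stood at 18.1, 19.6 and 20.2 CPM in control A, B and C, at 0.608, 0.509 and 0.343 CPM with hairpin #1 and at 0.118, 0 and 0.046 CPM with hairpin #3. The groups did not overlap, and the hairpin #3 libraries held 2, 0 and 1 counts where the control libraries held 373 to 422. With hairpin #1 it fell by 5.30 ± 0.245 (SE) on the log2 scale (edgeR adjusted p = 2.28e-09). With hairpin #3, where 3 counts per library is taken as the floor, it was at least 121-fold lower than control.

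PDK4, the kinase that restrains pyruvate oxidation during fasting and fat use, had 35, 42 and 43 counts in control libraries, 1.70, 2.09 and 2.06 CPM. It had 1, 2 and 2 counts with hairpin #1 and 1, 1 and 0 with hairpin #3, or 0 to 0.102 CPM. It was thus low at the outset and at the floor in all 6 knockdown libraries, at least 13.0-fold lower than control (edgeR adjusted p = 2.18e-06 in the pooled comparison). The other 3 kinases did not share this. PDK3 was at 4.84, 3.09 and 4.21 CPM in control, 2.80, 1.53 and 0.772 CPM with hairpin #1 and 3.65, 2.52 and 1.57 CPM with hairpin #3, so that 5 of 6 knockdown libraries lay below control. It was called lower with hairpin #1 (log2 fold change -1.26 ± 0.399, edgeR adjusted p = 0.0242), but this was lost without control A, control C, hairpin #1 B or hairpin #1 C (adjusted p = 0.0586 to 0.0852 there, and 2.46e-05 to 0.0852 over all alternatives). PDK1 (pooled log2 fold change -0.26 ± 0.138) and PDK2 (0.27 ± 0.135) were not called in these comparisons with control. PDK2 shares 38.6% of its exon bases with SAMD14, which went from 60 to 75 counts in control to 174 to 546 counts in knockdown libraries, and reads without strand cannot be told apart there.

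NDRG1, a stress-responsive gene induced by hypoxia, rose in every knockdown library. Control A, B and C stood at 5.28, 6.87 and 7.36 CPM, hairpin #1 at 26.7, 50.7 and 40.9 CPM and hairpin #3 at 15.2, 20.1 and 23.6 CPM, with no overlap between any 2 groups. The pooled log2 fold change was 2.18 ± 0.364 (edgeR adjusted p = 0.00063), a 4.54-fold rise, and it held whichever library was left out. Its 50 nearest genes on chromosome 8, among tested genes above a cutoff on mean CPM, had a median pooled log2 fold change of -0.41. Such genes over the whole chromosome had a median of -0.3, against 0.0045 for all tested genes without that cutoff. NDRG1 thus rose where its neighbours were lower.

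CA12, a membrane carbonic anhydrase, also rose, from very low levels. The control libraries held 1, 10 and 2 counts (0.048, 0.498 and 0.096 CPM), hairpin #1 27, 26 and 7 counts (1.26, 1.32 and 0.300 CPM) and hairpin #3 29, 46 and 31 counts (1.71, 2.52 and 1.43 CPM). Hairpin #1 C lay below control B, so the groups overlapped. The pooled log2 fold change was 2.70 ± 0.722 (edgeR adjusted p = 0.0130), which missed the threshold without control A (2.24, adjusted p = 0.0556) or control C (2.35, adjusted p = 0.0635), over a range of 0.000588 to 0.0635 in all alternatives. Without control B, which held 10 of the counts in control, the value was 4.17. With hairpin #1 alone (2.13 ± 0.705) it was lost without control A, control C, hairpin #1 A or hairpin #1 B, at edgeR adjusted p-values up to 0.107 (0.000164 to 0.107 over all alternatives), and with hairpin #3 (3.12 ± 0.667) it held. CA9, the related hypoxia marker, had 0 to 4 counts in every library and was not tested. It shares 38.5% of its exon bases with ARHGEF39.

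VEGFA, the main growth factor for blood vessels, differed between the hairpins. It was at 20.5, 14.9 and 17.7 CPM in control, 28.3, 47.1 and 40.2 CPM with hairpin #1 and 20.4, 21.4 and 26.5 CPM with hairpin #3, where library A fell within the control range. It rose with hairpin #1 (log2 fold change 1.12 ± 0.181, edgeR adjusted p = 0.000274), and the value with hairpin #3 was 0.36 ± 0.183 and not called. The pooled call (0.79 ± 0.259, edgeR adjusted p = 0.0350) was lost without any 1 of the control libraries or without hairpin #1 C, at 0.0534 to 0.151, the range over all alternatives being 0.0024 to 0.151. BNIP3, a mitophagy receptor, was the steadiest rise of the group, from 43.5 ± 2.07 CPM (SD, n = 3) to 69.9 ± 5.15 and 71.0 ± 4.01 CPM with the hairpins (pooled log2 fold change 0.70 ± 0.084, edgeR adjusted p = 5.32e-05), and it held without any single library. ADM, the vasodilator peptide adrenomedullin, stood at 25.3 ± 3.78, 29.1 ± 7.33 and 21.8 ± 2.79 CPM in control, hairpin #1 and hairpin #3, and was not called.

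**Figure D3:**
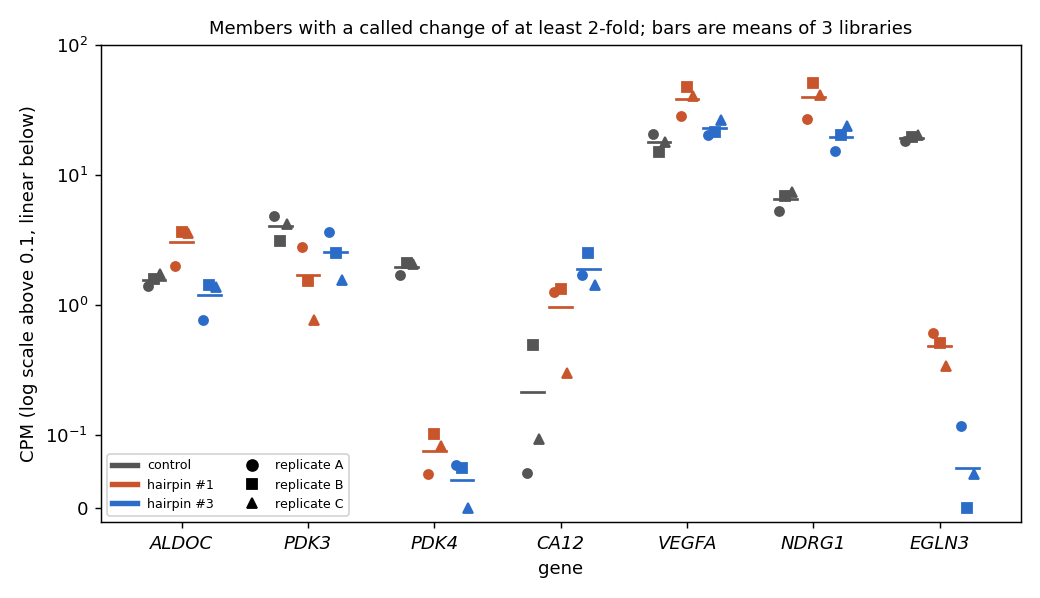
CPM in each library of the 7 members with a called change of at least 2-fold in any comparison of groups, on an axis that is logarithmic above 0.1 and linear below; colours are groups, symbols are replicate letters and bars are means of 3 libraries. EGLN3 falls from 18.1 to 20.2 CPM in control to 0.608 CPM or less, and NDRG1 rises above control in all 6 knockdown libraries.

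Of the HIF alpha subunits, HIF1A moved little at the RNA level, and EPAS1 was called higher with hairpin #1 only. HIF1A stood at 130 ± 15.6, 143 ± 22.8 and 131 ± 14.1 CPM in control, hairpin #1 and hairpin #3, with a pooled log2 fold change of 0.08 ± 0.123 that was not called. EPAS1, which encodes HIF-2 alpha, was at 487 ± 92.9, 727 ± 224 and 507 ± 13.2 CPM. It was called higher with hairpin #1 (log2 fold change 0.58 ± 0.192, edgeR adjusted p = 0.0300), a call lost without control A or B or hairpin #1 B or C, at 0.0679 to 0.163 (7.12e-06 to 0.163 over all alternatives). With hairpin #3 the value was 0.06 ± 0.191.

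The enzymes that carry glucose to pyruvate were grouped as hexose and triose steps, with TPI1, which acts on triose phosphates, counted under the hexose steps. So grouped, 3 of 9 genes of the hexose steps (HK1, PFKM and TPI1) and 4 of 6 of the triose steps rose in the pooled comparison. None was called lower, and the changes were under 2-fold. Over all tested genes 15.9% were called higher and 17.0% lower. HK1, a hexokinase that traps glucose in the cell, went from 92.6 ± 4.38 CPM in control to 149 ± 12.1 and 123 ± 12.3 CPM with hairpins #1 and #3 (pooled log2 fold change 0.56 ± 0.115, edgeR adjusted p = 0.00287). HK2, the inducible hexokinase, was called with hairpin #1 (0.47 ± 0.160, edgeR adjusted p = 0.0353), the value with hairpin #3 being 0.20 ± 0.160. The hairpin #1 call was lost without any 1 of 6 libraries, namely control B, control C, the 3 of hairpin #1 and hairpin #3 B, at 0.0527 to 0.151 (0.000166 to 0.151 over all alternatives). GPI, which isomerises glucose 6-phosphate, stood at 307 ± 12.2, 339 ± 31.1 and 270 ± 30.0 CPM and was not called.

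Among the phosphofructokinases, which commit sugar to glycolysis, the muscle-type PFKM rose and the liver-type PFKL and platelet-type PFKP were not called. PFKM was at 71.7 ± 6.90, 85.9 ± 1.45 and 111 ± 9.19 CPM (pooled log2 fold change 0.46 ± 0.129, edgeR adjusted p = 0.0173), with all 6 knockdown libraries above control. Its pooled call was lost without control A (0.0773) or control B (0.0748), with 0.00112 to 0.0773 over all alternatives, and its call with hairpin #3 (0.63 ± 0.099) held. PFKL and PFKP had pooled log2 fold changes of 0.10 ± 0.096 and -0.04 ± 0.108. The 50 nearest genes to PFKM on chromosome 12, among tested genes above a cutoff on mean CPM, had a median of 0.27 with hairpin #3. Such genes over the whole chromosome had a median of 0.22, against -0.0029 for all tested genes without that cutoff.

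The aldolases could be read for ALDOC alone. It stood at 1.40, 1.59 and 1.72 CPM in control, 2.01, 3.66 and 3.56 CPM with hairpin #1 and 0.765, 1.43 and 1.38 CPM with hairpin #3, so all hairpin #1 libraries lay above control, while the hairpin #3 libraries overlapped it. It was called higher with hairpin #1 (log2 fold change 0.97 ± 0.300, edgeR adjusted p = 0.0216), which was lost without control A or B or hairpin #1 B or C, at 0.0606 to 0.0822 (0.00479 to 0.0822 over all alternatives), and with hairpin #3 it was not called (-0.39 ± 0.328). ALDOA, usually the main aldolase of cultured cells, had 12 to 21 counts in every library. In GENCODE 29, 93.8% of its coding bases lie in exons of other genes, of which AC093512.2 shares the most, its listed length differs from that in GENCODE 29, and how shared reads were handled is not given in the sources used here, so its count does not give its level.

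TPI1, which interconverts the triose phosphates, went from 697 ± 12.04 to 911 ± 71.4 and 799 ± 11.2 CPM (pooled log2 fold change 0.29 ± 0.094, edgeR adjusted p = 0.0312). PGK1, the first ATP-forming enzyme, went from 255 ± 3.67 to 312 ± 7.85 and 286 ± 13.4 CPM (0.23 ± 0.080, edgeR adjusted p = 0.0468). In neither did the control and knockdown libraries overlap. Neither was called with hairpin #3 alone (0.20 ± 0.095 for TPI1 and 0.16 ± 0.085 for PGK1), and both pooled calls depended on single libraries. That of TPI1 was lost without any 1 control library or hairpin #1 A or C (0.0522 to 0.119, and 0.00579 to 0.119 over all alternatives). That of PGK1 was lost without any 1 library other than hairpin #3 A (0.0608 to 0.133, and 0.00865 to 0.147 over all alternatives), and its call with hairpin #1 without control B or hairpin #1 C (0.0540 and 0.0542).

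PGAM1, a mutase, ENO1, the main enolase, and ENO2, the neuronal enolase, rose in all 6 knockdown libraries, and these pooled calls held whichever library was left out. PGAM1 was at 219 ± 12.6, 286 ± 14.5 and 313 ± 39.7 CPM (pooled log2 fold change 0.45 ± 0.101). ENO1 was at 1540 ± 67.0, 2184 ± 177 and 1992 ± 89.2 CPM (0.44 ± 0.094), and its call with hairpin #3 alone was lost without control B (edgeR adjusted p = 0.0735, and 0.000304 to 0.0735 over all alternatives). ENO2 was at 17.9 ± 0.375, 31.1 ± 1.79 and 30.7 ± 0.712 CPM (0.79 ± 0.085, edgeR adjusted p = 2.15e-05), a rise of 1.72-fold. GAPDH, the glyceraldehyde phosphate dehydrogenase, and PKM, the pyruvate kinase, were not called, at pooled log2 fold changes of 0.11 ± 0.086 and 0.18 ± 0.084, although PKM was above control in all 6 knockdown libraries. Of the coding bases of GAPDH, 21.5% lie in exons of AC006064.4. Per kilobase of the listed gene length, GAPDH had the highest value of the members in control libraries (813 ± 31.4 CPM per kb). It was followed by ENO1 (389 ± 16.9), PKM (288 ± 8.11) and TPI1 (258 ± 4.46). This order depends on the listed lengths: by CPM, PKM stood at 2471 ± 69.5 and GAPDH at 2424 ± 93.7 in control. The places of ALDOA and LDHB are not known, since their counts do not give their levels.

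The PFKFB enzymes make or remove fructose 2,6-bisphosphate, the signal that turns phosphofructokinase on, and they did not move together. PFKFB3, the form with the strongest synthetic activity, went from 28.4 ± 4.21 to 41.7 ± 7.22 and 43.8 ± 11.4 CPM (pooled log2 fold change 0.59 ± 0.172, edgeR adjusted p = 0.02). Control B and control A each decided the pooled call, which was lost without them at 0.113 and 0.0586 (0.00455 to 0.113 over all alternatives). Its calls with hairpin #1 (0.55 ± 0.187) and hairpin #3 (0.63 ± 0.187) were likewise lost without 4 libraries (control A or B, hairpin #1 B or C, 0.0595 to 0.136, and 0.000153 to 0.136 over all alternatives) and 3 libraries (control B, hairpin #3 B or C, 0.0607 to 0.0926, and 1.32e-05 to 0.0926 over all alternatives). PFKFB4 was at 7.71 ± 0.480, 8.96 ± 0.760 and 5.36 ± 0.785 CPM, lower with hairpin #3 (-0.52 ± 0.158, edgeR adjusted p = 0.0207) but not without control C, hairpin #3 A or hairpin #3 B (0.0677 to 0.0817, and 0.00779 to 0.0817 over all alternatives). PFKFB2 was at 30.5 ± 5.61, 32.2 ± 2.33 and 33.3 ± 11.2 CPM and was not called.

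Neither glucose transporter was called higher. SLC2A1, the basal glucose transporter GLUT1, was at 568 ± 68.0 CPM in control, 623 ± 96.2 CPM with hairpin #1 and 419 ± 27.6 CPM with hairpin #3. It was called lower with hairpin #3 (log2 fold change -0.44 ± 0.129, edgeR adjusted p = 0.0174), a call lost without control B, control C or hairpin #3 B at 0.0520 to 0.0802 (0.00087 to 0.0802 over all alternatives). SLC2A3, the high-affinity GLUT3, stood at 15.7 ± 3.54, 15.6 ± 1.84 and 11.7 ± 0.702 CPM and was not called against control.

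Among the lactate genes SLC16A3 rose, and the other 3 were not called against control. SLC16A3 (MCT4), suited to lactate export, rose from 322 ± 39.1 CPM to 469 ± 47.9 and 593 ± 59.7 CPM (pooled log2 fold change 0.73 ± 0.141, edgeR adjusted p = 0.00189), above control in all 6 knockdown libraries and whichever library was left out. SLC16A1 (MCT1), which also imports lactate, went from 270 ± 8.999 CPM to 242 ± 4.62 and 236 ± 3.37 CPM, below control in 6 of 6 libraries but not called (-0.17 ± 0.070, edgeR adjusted p = 0.0796, and 0.0101 to 0.283 over all alternatives). LDHA, which makes lactate from pyruvate, was at 637 ± 20.5, 755 ± 15.1 and 560 ± 56.1 CPM and was not called against control. LDHB had 24 to 46 counts per library, and since 93.5% of its coding bases lie in exons of AC010197.2, its count does not give its level.

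The balance between related genes was followed as a log2 ratio of counts per kilobase within each library, which does not depend on scaling between libraries. The shares given below depend on the listed gene lengths, and the differences in log2 ratio between groups do not. SLC16A3 made up 39.2% to 43.5% of the sum with SLC16A1 in control libraries, 50.4% to 54.9% with hairpin #1 and 56.8% to 61.4% with hairpin #3. By CPM, without lengths, SLC16A3 was above SLC16A1 in control libraries already, at 283 to 362 against 260 to 278 CPM. The ratio was higher by 0.89 in knockdown, with no overlap, and the exact two-sided permutation test gave p = 0.0238, the smallest that 84 arrangements of the libraries allow, and 0.107 after adjustment over the 9 ratios. ENO2 took 1.05% to 1.09% of the enolase sum in control and 1.17% to 1.45% in knockdown libraries, a log2 difference of 0.35 with the same exact p-values of 0.0238 and 0.107. PFKM against PFKL differed by 0.35 (exact p = 0.0714, adjusted 0.214), its share being 31.0% to 31.9% in control, 31.0% to 35.0% with hairpin #1 and 39.6% to 42.0% with hairpin #3. For HK2 to HK1, PFKP to PFKL, SLC2A3 to SLC2A1 and EPAS1 to HIF1A the differences were -0.19, -0.15, -0.04 and 0.24, at exact p-values of 0.310, 0.167, 0.643 and 0.476. The ratios with ALDOA and LDHB, -0.08 and 0.07, rest on counts that do not give those genes' levels. No ratio passed the threshold after adjustment. The ratios of SLC16A3 to SLC16A1 and of ENO2 to ENO1 already had the smallest possible exact permutation p-value, 0.0238, and were at 0.107 after adjustment. By themselves they could not have passed among 9, so nothing is concluded from their missing the threshold.

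**Figure D4:**
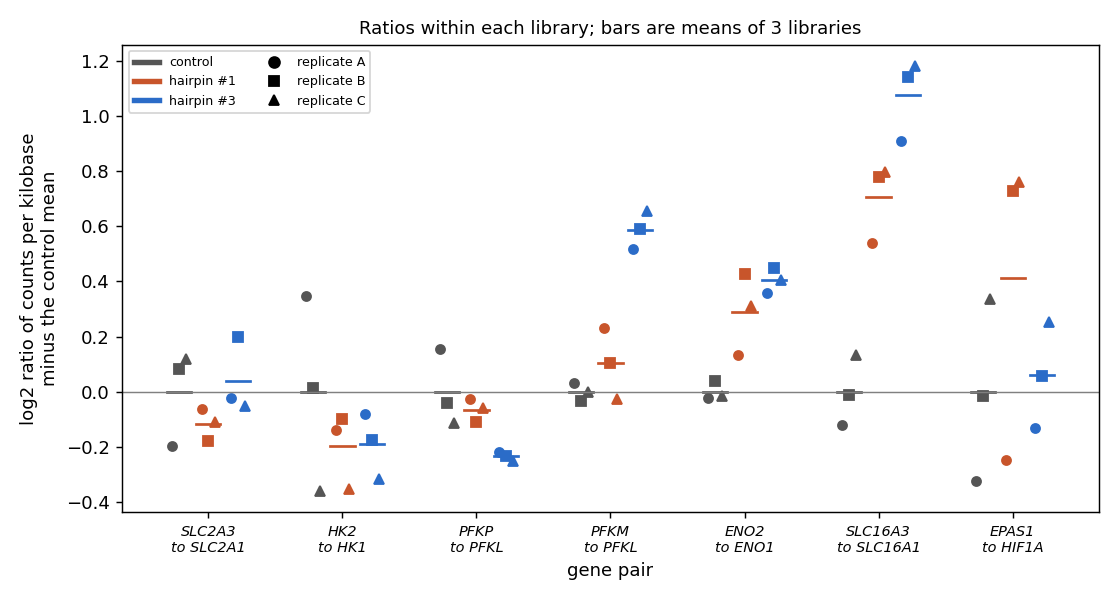
Log2 ratio of counts per kilobase for 7 gene pairs, minus the control mean, in each library; colours are groups, symbols are replicate letters and bars are means of 3 libraries. The ratio of SLC16A3 to SLC16A1 and that of ENO2 to ENO1 lie above the control libraries in all 6 knockdown libraries, and PFKM to PFKL does so with hairpin #3.

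The hairpins were compared with each other directly, since a gene can pass with 1 and miss with the other without differing. Hairpin #3 libraries had lower levels than hairpin #1 libraries for 7 members and a higher level for 1, so 8 of 36 were called (22.2%), against 11.6% of all genes, 6.33% higher and 5.30% lower. At least 2-fold differences were called for 3, against 3.93% of all genes. Without overlap between the hairpins were 16 of the 36, against 27.7% of all tested genes. The lower members were SLC2A1 (log2 difference -0.57 ± 0.129), PFKFB4 (-0.74 ± 0.157), ALDOC (-1.35 ± 0.312), LDHA (-0.43 ± 0.099), VEGFA (-0.76 ± 0.179), NDRG1 (-1.002 ± 0.216) and EGLN3, and the higher one was PFKM (0.37 ± 0.099). EGLN3, at 8 to 13 counts with hairpin #1 and 0 to 2 with hairpin #3, was at least 3.05-fold higher with hairpin #1. The calls of PFKFB4, NDRG1 and EGLN3 held whichever library was left out. The count was 5 without hairpin #1 C and 4 without hairpin #3 B. SLC2A1 was lost without hairpin #3 B, PFKM without control B, hairpin #1 B or C or hairpin #3 B or C, ALDOC without hairpin #1 B or C, LDHA without hairpin #3 B or C, and VEGFA without hairpin #1 B or C or hairpin #3 B, at edgeR adjusted p-values of 0.0503 to 0.110 (2.14e-06 to 0.110 over these genes and all alternatives).

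Replicate letters were compared because every group holds 1 library of each. The labels do not say what a letter stands for. Replicate A differed from the mean of B and C, with group in the model, for 11 of 36 members, 4 higher and 7 lower, against 21.0% of all genes called, 10.5% higher and 10.4% lower. None of these reached 2-fold, against 1.04% of all genes. Higher in A were HK2 (log2 difference 0.38 ± 0.070), PFKFB2 (0.46 ± 0.097), PDK3 (0.81 ± 0.239) and HIF1A (0.25 ± 0.072), each with A the highest library in all 3 groups. Lower in A were SLC2A1 (-0.23 ± 0.076), SLC2A3 (-0.34 ± 0.106), PFKFB3 (-0.36 ± 0.105), SLC16A3 (-0.26 ± 0.060), PDK2 (-0.37 ± 0.074), ADM (-0.38 ± 0.092) and NDRG1 (-0.61 ± 0.108). NDRG1 in replicate A was 0.742, 0.584 and 0.695 times the mean of B and C in control, hairpin #1 and hairpin #3. So replicate A has the lowest NDRG1 level in every group, yet its knockdown libraries still lie above all control libraries. The calls of HK2, SLC16A3, PDK2 and NDRG1 held whichever library was left out. The other 7 were each lost without at least 1 library, at edgeR adjusted p-values up to 0.274 (4.68e-06 to 0.274 over these genes and all alternatives), and the count was 5 without hairpin #1 A and 7 without hairpin #3 C.

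**Figure D5:**
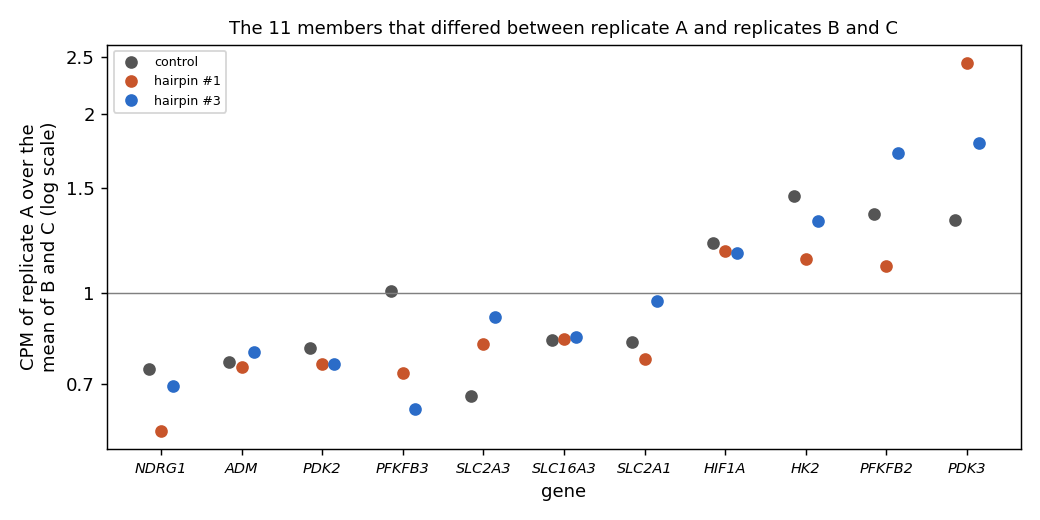
CPM of replicate A divided by the mean of B and C, on a log axis, for the 11 members called between replicate A and replicates B and C; colours are groups. NDRG1 and PDK3 lie farthest from 1 in hairpin #1, at 0.584 and 2.44.

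Genes around the members were counted from lists of the same pathways, to be read beside the 15.9% of all tested genes that were called higher and the 17.0% called lower. Of 45 other genes of glycolysis, gluconeogenesis and pyruvate use, 30 were tested, 3 rose (10.0%) and 8 fell (26.7%) in the pooled comparison, with a median log2 fold change of -0.10. HKDC1, a hexokinase-like enzyme, rose by 2.53 ± 0.346 (edgeR adjusted p = 0.000142), while BPGM, which makes 2,3-bisphosphoglycerate, and SLC2A12, another glucose transporter, had log2 fold changes of -1.47 ± 0.199 and -1.34 ± 0.262. Of 20 pentose phosphate and glycogen genes, 18 were tested, 1 rose and 2 fell, namely GBE1, the glycogen branching enzyme (0.87 ± 0.115), UGP2 (-0.46 ± 0.076) and PYGB (-0.27 ± 0.093). Of 42 other oxygen-sensing and HIF-linked genes, 39 were tested, 15 rose (38.5%) and 5 fell (12.8%), with a median of 0.33. ARNT2, a partner subunit of the HIF alpha proteins, went from 1.47 ± 0.780 CPM to 20.6 ± 3.16 and 9.65 ± 2.38 CPM (3.36 ± 0.461), LOX, a collagen crosslinking enzyme, rose by 2.70 ± 0.291 and STC1, a secreted glycoprotein, by 2.68 ± 0.341. EGLN1, the main HIF prolyl hydroxylase of most cells, went from 100 ± 5.94 CPM to 140 ± 6.85 and 131 ± 11.6 CPM (0.44 ± 0.088, edgeR adjusted p = 0.0024), opposite in direction to EGLN3, and was named here after its value was seen.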

How the data were processed

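RNA of 9 OVCA433 libraries was sequenced from poly(A)-selected, non-directional libraries. The authors deposited raw read counts per gene, which the submitters' processing notes trace to HISAT2 2.0.5, featureCounts 1.5.0-p3 and genome build hg38; the counting options, the annotation release and the definition of gene length are not given in the sources used here. Libraries were grouped by their GEO titles, and no other columns of per-sample values were present.

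Genes were filtered with filterByExpr of edgeR 4.0.16 (minimum count 10, minimum total 15), leaving 15975 genes with 99.889% of the counts, scaled by TMM and tested in R 4.3.3 with the quasi-likelihood F test, p-values being adjusted by Benjamini-Hochberg across the whole table. The pooled comparison put both hairpins in 1 arm, as the study did; the study used DESeq2, an alternative here. The hairpin comparisons came from a 3-group model, and the comparison of replicate letters from a model with group. SE was derived from the fold change and F statistic, and CPM used the TMM factors. A group at 3 counts or fewer in each library was taken as at the floor, and bounds and floors cover counting error only, since reads without molecular identifiers are not independent molecules. P-values measure the spread between libraries that the study calls biological replicates. In the pooled comparison, that spread also holds the difference between the 2 hairpins. The SE of NDRG1 was 0.364 there, against 0.235 for hairpin #1 in the 3-group model. Ratios had 1 count added and were tested by exact permutation over libraries.

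The members, lists and tests were chosen with earlier results of these data known. Values in every library are given for members called at 2-fold in any comparison of groups, and at most 3 called genes per other list are named, with a mean of at least 1 CPM and the largest pooled change, except among marker lists; KRT8 and EGLN1 were named outside this rule after their values were seen. The scripts were tested on simulated counts. Promoters and positions came from RefSeq (GRCh38.p14) and GENCODE 29; 32 of 37 members matched the promoter table, and protein sequences were not used here. Alternatives were no count filter, a mean of at least 1 CPM, DESeq2 1.42.0 size factors and Wald test, library totals, a replicate block, each library left out, thinned counts, an adjusted p under 0.01, at least 2-fold, a 3-group fit, only the groups compared, ratios of raw counts and 5 added counts.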

Additional observations from a re-analysis of the deposited data

Results flagged for a closer look

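For 8 members the knockdown effects of the hairpins differed from each other by the test of the difference itself (edgeR quasi-likelihood test, hairpin #3 minus hairpin #1, log2 scale). Higher with hairpin #3 was PFKM, by 0.37, at 111 against 85.9 CPM. Its 50 nearest genes, among tested genes above a cutoff on mean CPM, had a median of 0.205 in the same comparison. Such genes over chromosome 12 had a median of 0.152, against -0.0087 for all tested genes without that cutoff. Lower with hairpin #3 were SLC2A1 (-0.57), PFKFB4 (-0.74), ALDOC (-1.35), LDHA (-0.43), VEGFA (-0.76), NDRG1 (-1.002) and EGLN3 (-3.05, a fitted value against 0 to 2 counts). No sample could be tested as standing apart from its group, because groups of 3 libraries are too small for the outlier test used. The parts that hairpin sequence, degree of knockdown, culture and shifts shared with neighbouring genes play in these differences were not tested.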

How the results depend on the processing

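At an adjusted p under 0.01, 9 members were called in the pooled comparison, 10 with hairpin #1, 10 with hairpin #3, 3 between hairpins and 5 between replicate letters. The requirement of at least 2-fold left 4, 6, 4, 3 and 0. Same-letter libraries were not paired by the labels. Their deviations from the group means correlated at 0.455 to 0.523 for A, 0.057 to 0.171 for B and 0.276 to 0.385 for C. Between groups, A against B or C gave -0.499 to -0.154, and B against C gave 0.064 to 0.213. Replicate A thus stood apart, while B and C were not clearly separate, with control B correlating best with hairpin #1 C (0.194). The main fits against control and between hairpins did not include the letter. With the letter as a replicate block, 19 members were called in the pooled comparison, 23 with hairpin #1, 22 with hairpin #3 and 16 between hairpins. When each library was left out in turn, counts ran from 10 to 16, 12 to 19, 11 to 16, 4 to 10 and 5 to 12. Filters, scaling, thinning, the DESeq2 Wald test, the 3-group fit and the fits of only the groups compared left every count within 1.5 times. Shares over all tested genes under these alternative settings are not given here. The counts therefore show how the calls depend on the setting and are not results about the members.

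Members that were not called changed sign on leaving out a library, over ranges of -0.076 to 0.036 for GPI, -0.024 to 0.265 for PFKFB2, -0.01 to 0.109 for LDHA, -0.058 to 0.274 for LDHB, -0.003 to 0.175 for HIF1A and -0.136 to 0.081 for ADM, which was also at -0.007 in the 3-group fit. Ratios did so for SLC2A3 to SLC2A1 (-0.137 to 0.02), ALDOC to ALDOA (-0.271 to 0.115) and LDHB to LDHA (-0.067 to 0.25). SLC16A1, lower in all 6 knockdown libraries, was called by the DESeq2 Wald test (adjusted p = 0.0101) and with the replicate block (0.0454), as PKM was (0.0286 and 0.0456). Calls were also gained by PDK2 with the block (0.0259), by HK2 with the block (0.0372) or without control A (0.028), and by PDK3 with the block (0.0343), in the 3-group fit (0.033) or without hairpin #3 A (0.0274). The pooled call of VEGFA was lost with the block (0.0663). The causes of these changes were not tested. Depth limits PDK4, CA12, CA9, EGLN3, ALDOA and ALDOC, which had 13 counts or fewer in some or all libraries.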
